A study of Emberiza melanocephala with 4 samples.

Results

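The secreted protein genes AHSG, COLEC10, SERPINE2 and ANGPT2 were followed in testis-labelled RNA libraries of the black-headed bunting (Emberiza melanocephala), a seasonally breeding songbird. They were picked because earlier values from these same libraries were higher in the library labelled sensitive, so their levels describe that choice and carry no test. The group is 4 of 2296 reference genes with exons in any of the deposited files, 1566 of which have a gene symbol. RNA labelled as testis, from birds caught in the wild, was sequenced in 1 library for each testicular state: sensitive, early stimulated, late stimulated and refractory. No genotype, treatment, age or number of birds per library is given in the sources used here. Since each state has a single library, replicate error is unknown, and every difference below compares libraries, not states.

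AHSG encodes fetuin-A, a plasma protein that in mammals is made mostly by the liver and keeps calcium phosphate from precipitating. COLEC10 encodes a collectin, a soluble lectin with a collagen-like stalk that binds sugars on microbes and pairs with the related COLEC11 to start the lectin pathway of complement. SERPINE2 encodes a serine protease inhibitor, also called protease nexin, that blocks thrombin, plasmin and plasminogen activators at cell surfaces. ANGPT2 encodes angiopoietin-2, a ligand of the endothelial receptor TEK that in mouse and human loosens vessel walls. All of these proteins act outside the cell that makes them, so a transcript level does not show where they act. Neither the proteins nor the cells that make them were measured here.

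A level here is how deeply the listed transcripts together cover a gene's exons, scaled to the FPKM units of the deposited transcripts, which correct for exon length and library size. Aligned sequence amounted to 120 Mb for sensitive, 201 Mb for early stimulated, 428 Mb for late stimulated and 318 Mb for refractory. Transcripts with no reference gene appear in the files from a coverage of 2.5 upward, a listing floor of 20.8 FPKM in sensitive, 12.5 FPKM in early stimulated, 5.84 FPKM in late stimulated and 7.86 FPKM in refractory. A gene listed at 0 may be present below that floor.

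The sensitive library stood apart from the others in its cell type markers, and this touches every value below. The 9 genes with a value on the photoreceptor list, of 13 counted, were all listed at 0 in sensitive. They summed to 899 FPKM in early stimulated, 586 FPKM in late stimulated and 1009 FPKM in refractory, where 1 of them was at 0. These sums include RLBP1, a retinoid carrier not specific to photoreceptors. It was at 24.7 FPKM in early stimulated, 8.32 FPKM in late stimulated and 29.6 FPKM in refractory. The 10 neuronal genes with a value, of 12 on the list, summed to 20.4 FPKM in sensitive, 1817 FPKM in early stimulated, 1882 FPKM in late stimulated and 1729 FPKM in refractory. Of 19 Sertoli and Leydig cell markers 2 had a value, and of 16 germ cell markers 3, and none of these reached 8 FPKM in any library. In early stimulated, late stimulated and refractory the photoreceptor and neuronal sums were far above these levels. The measured markers therefore do not establish the label testis, which was taken as given. With 1 library per state, a difference in tissue content and a difference in testicular state cannot be told apart, nor can fewer cells of a type and less RNA per cell.

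**Figure D1:**
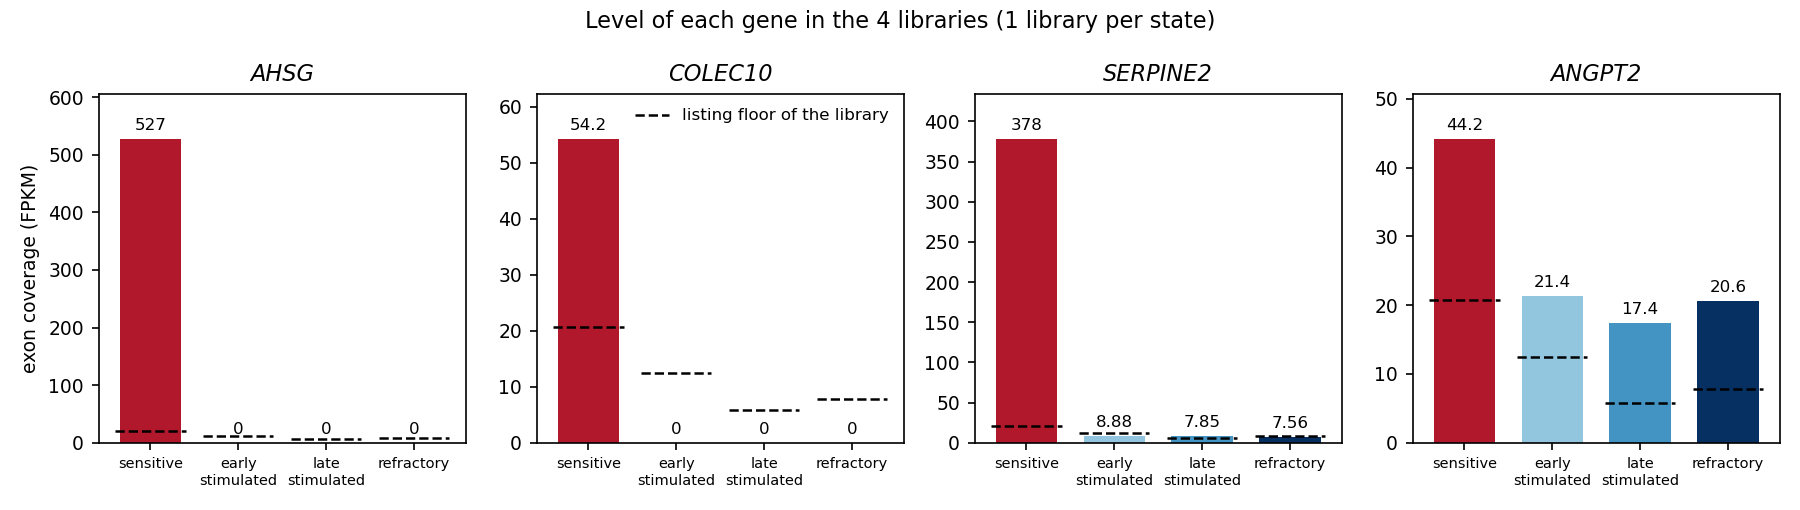
Bars give exon coverage in FPKM on a linear axis from 0, with its own scale for each gene, in the 4 libraries (1 library per state, no error bars), and dashed lines give each library's listing floor. AHSG and COLEC10 are at 0 outside sensitive, SERPINE2 is between 7.56 and 8.88 FPKM there, and ANGPT2 stays between 17.4 and 21.4 FPKM.

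Averaged over all annotated exons, AHSG, the fetuin-A gene, had the highest level of the group in sensitive. It was at 527 FPKM in sensitive and listed at 0 in early stimulated, late stimulated and refractory. In the sensitive library that placed it 30th of the 2296 genes, next to YWHAZ, a signalling adaptor found in most cells, which was at 527 FPKM in sensitive, 447 FPKM in early stimulated, 551 FPKM in late stimulated and 425 FPKM in refractory. The gene (ENSFALG00000008201) has 7 exons and 1185 exonic bases on the plus strand of scaffold JH603178.1 of the collared flycatcher assembly FicAlb_1.4, from 11024451 to 11031293. A single transcript covered it, with the annotated exons and all 6 annotated introns.

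The exons of AHSG held 75.3 kb of aligned sequence in sensitive, a mean coverage of 63.5. The same level would have given a coverage of 106 for early stimulated, 226 for late stimulated and 168 for refractory, against the 2.5 from which an unmatched transcript was listed. A lower level could still lie under that floor. No transcript of any kind was listed within 20 kb of the gene in those 3 libraries. No fold can be given against a value of 0. On the log2(FPKM + 1) scale the difference was -9.05 in each of the 3 comparisons, a size set by the pseudocount, and it lay between -5.30 and -6.27 with the uncovered gene placed at each library's floor.

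Coverage was uneven along AHSG even inside the one library that held it. Exon 2 reached 1446 FPKM and exon 5 had 132 FPKM, a 10.96-fold range over 7 exons. The nearest genes with a value did not share its lack of coverage outside sensitive, although SENP5 was also lower there. SENP5, a SUMO protease 70.1 kb upstream, was at 38.4 FPKM in sensitive, 13.2 FPKM in early stimulated, 9.63 FPKM in late stimulated and 13.0 FPKM in refractory. In the order of the states, its differences from sensitive were -1.47, -1.89 and -1.50 in log2(FPKM + 1), and those of EIF4A2 were -0.47, -0.67 and -0.43. EIF4A2, a translation initiation helicase 69.5 kb downstream, was at 1836 FPKM in sensitive, 1324 FPKM in early stimulated, 1151 FPKM in late stimulated and 1363 FPKM in refractory. Both neighbours were thus covered in every library on either side of a gene that was covered in 1.

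Over 1206 named genes with at least 5 FPKM in some library, the profile closest to AHSG was that of FABP4, a fatty acid carrier of fat cells and endothelium. FABP4 was at 538 FPKM in sensitive and listed at 0 in the other libraries, a Euclidean distance of 0.030 from AHSG over the 4 log2(FPKM + 1) values. The next were KCNMB1, a potassium channel subunit of smooth muscle, at 195 FPKM in sensitive and a distance of 1.43, and RPS27L, a ribosomal protein paralog, at 124 FPKM and a distance of 2.08. Both were also listed at 0 elsewhere. Such likeness over 4 libraries rests on 1 value above 0.

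The other genes for plasma proteins on the list could not be compared. Of 32 plasma and liver secreted proteins on the list, among them albumin, transthyretin, apolipoproteins and fibrinogen chains, AHSG alone carried a name in these files. The list is not complete, and plasma protein genes outside it were not surveyed. None of the 14 hepatocyte markers did. Most assembled transcripts matched no reference gene, so a gene without a name is not shown to be silent, and the part of liver-type cells in the AHSG value was not tested.

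COLEC10, the collectin gene, showed the same pattern at a lower level. It was at 54.2 FPKM in sensitive and listed at 0 in early stimulated, late stimulated and refractory. AHSG was 9.72-fold higher than COLEC10 in sensitive, per exonic base. The gene (ENSFALG00000002321) lies on the plus strand of scaffold JH603185.1 from 4064226 to 4082513, with 6 exons and 1037 exonic bases, and 1 transcript with all 5 annotated introns covered it.

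The evidence for COLEC10 is thinner than for AHSG. Its exons held 6.78 kb of aligned sequence in sensitive, a mean coverage of 6.54. At that level the coverage would have been 10.9 for early stimulated, 23.2 for late stimulated and 17.3 for refractory, still above 2.5 in each. No transcript was listed within 20 kb in these 3 libraries. The difference was -5.79 on the log2(FPKM + 1) scale in each comparison, and between -2.04 and -3.01 with the gene at the libraries' floors. All 6 exons were covered in sensitive, from 19.5 FPKM in exon 5 to 97.1 FPKM in exon 2, a 4.99-fold range.

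The partner of COLEC10 in the lectin pathway, COLEC11, was the only other of 26 lectin complement genes with a value. It was at 3.34 FPKM in sensitive and listed at 0 in the others, and since 3.34 FPKM lies under every floor no direction is measurable for it. The MASP proteases that collectins activate, and the complement components downstream, had no value. The profiles closest to COLEC10 were those of NPC2, a lysosomal cholesterol carrier, at 54.4 FPKM in sensitive, HAND2, a mesoderm transcription factor, at 51.8 FPKM, and OSR1, a regulator of intermediate mesoderm, at 42.8 FPKM. Each was listed at 0 in the other libraries, at distances of 0.0042, 0.067 and 0.33 from COLEC10.

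Of the genes flanking COLEC10, only MRPL13 had a measurable direction. MRPL13, a mitochondrial ribosomal protein gene 543 kb downstream, was at 69.5 FPKM in sensitive, 4.12 FPKM in early stimulated, 25.3 FPKM in late stimulated and 14.2 FPKM in refractory. SAMD12, which lies 182 kb upstream, was listed at 0 in sensitive and was at 11.9 FPKM in early stimulated, 11.9 FPKM in late stimulated and 4.16 FPKM in refractory. All 3 of its values lie under the floor of 20.8 FPKM in sensitive, so its direction is not measurable.

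Genes with no covered exon outside the sensitive library were a small group. Of 1381 genes at 1 FPKM or more in sensitive, 91 (6.59%) had no covered exon in any of the other 3 libraries. At or above the sensitive floor it was 20 of 732 genes (2.73%), 12 of them with a symbol, and AHSG and COLEC10 were chosen from these. The 12 also include the mesoderm factors SNAI2 at 109 FPKM and HOXA7 at 25.8 FPKM, and the secreted or matrix-bound proteins PAMR1 at 42.2 FPKM and CCDC80 at 25.2 FPKM in sensitive.

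SERPINE2, the thrombin and plasminogen activator inhibitor, was covered in every library and differed most of the pair for which that holds. It was at 378 FPKM in sensitive, 8.88 FPKM in early stimulated, 7.85 FPKM in late stimulated and 7.56 FPKM in refractory. The 3 later libraries lay within 1.17-fold of each other and all far below sensitive. Early stimulated held 2.35% of the sensitive level, late stimulated 2.08% and refractory 2.001%. On the log2(FPKM + 1) scale the differences from sensitive were -5.26 for early stimulated, -5.42 for late stimulated and -5.47 for refractory. In sensitive SERPINE2 ranked 50th of the 2296 genes, against 1114th in early stimulated, 1141st in late stimulated and 1174th in refractory.

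The gene (ENSFALG00000006776) lies on the minus strand of scaffold JH603178.1 from 1953237 to 1965335, with 9 exons and 3486 exonic bases, 9.06 Mb from AHSG. Its level cannot be read under its own name. In sensitive, a reference-matched transcript of 9 exons was listed at 63.8 FPKM beside an unmatched one of 8 exons at 628 FPKM, which supplied 83.1% of the exon coverage. In the other libraries no transcript carried the name SERPINE2, and the exons were covered by 1 unmatched transcript each, at 22.4 FPKM in early stimulated, 15.8 FPKM in late stimulated and 15.5 FPKM in refractory. Those FPKM count the transcript's own, shorter exons, and exceed the gene's value over all annotated bases. The gene's own value lies under the listing floor in early stimulated, 8.88 against 12.5 FPKM, and in refractory, 7.56 against 7.86 FPKM. The unmatched transcripts lie above the floor in each library, which the definition of the floor requires of them.

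The unmatched transcripts had nearly the same structure in all 4 libraries. Between them they held 7 different introns, and 6 of these were found in all 4 libraries and in the reference transcript. The remaining intron, of 2448 bases from 1962541 to 1964988, joined exon 1 to exon 3 and passed over exon 2, a stretch of 120 bases from 1963668 to 1963787. It was assembled in sensitive, late stimulated and refractory and is not in the reference transcript. In early stimulated the transcript began inside exon 3 and had 6 introns, so the choice of that junction could not be seen there.

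**Figure D2:**
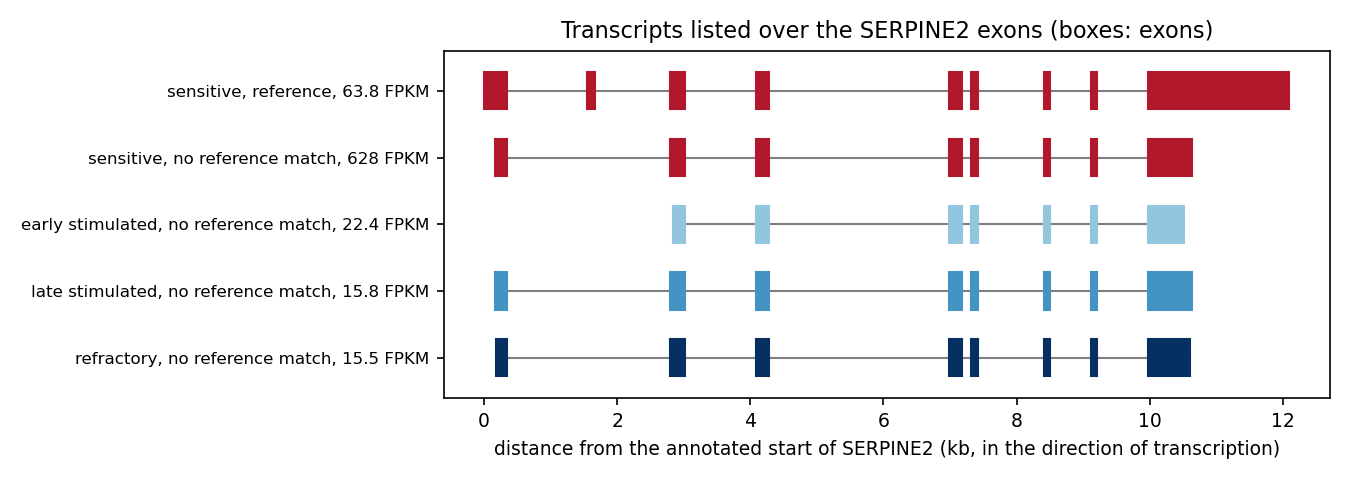
Transcripts listed over the SERPINE2 exons, with boxes for exons and lines for introns, against distance from the annotated start in kb, labelled with library, match to the reference and FPKM. The unmatched transcripts at 628 FPKM (sensitive), 15.8 FPKM (late stimulated) and 15.5 FPKM (refractory) share 1 chain of 7 introns that passes over the second annotated exon.

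Coverage by exon followed this structure. Exon 2 of SERPINE2 had 12.5 FPKM in sensitive and no coverage elsewhere, while the flanking exons 1 and 3 were at 224 and 343 FPKM in sensitive. In each later library all 9 exons lay 1 or more below sensitive in log2(FPKM + 1). For exon 2 this rests on a sensitive value under that library's floor of 20.8 FPKM. That value is also level with the early stimulated floor of 12.5 FPKM, so its direction there is not measurable. Exon 1 was at 0 in early stimulated, where the transcript began inside exon 3. Exon 8, of 84 bases, was the highest in each library, at 1434 FPKM in sensitive, 56.3 FPKM in early stimulated, 34.1 FPKM in late stimulated and 35.7 FPKM in refractory. The last exon makes up 60.9% of the annotated bases. It was at 364 FPKM in sensitive, 6.91 FPKM in early stimulated, 7.77 FPKM in late stimulated and 6.11 FPKM in refractory. Over the 1385 exonic bases covered in all 4 libraries, SERPINE2 stood at 718 FPKM in sensitive, 22.4 FPKM in early stimulated, 16.8 FPKM in late stimulated and 16.6 FPKM in refractory. On these bases sensitive was 32.1-fold above early stimulated, 42.9-fold above late stimulated and 43.3-fold above refractory.

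**Figure D3:**
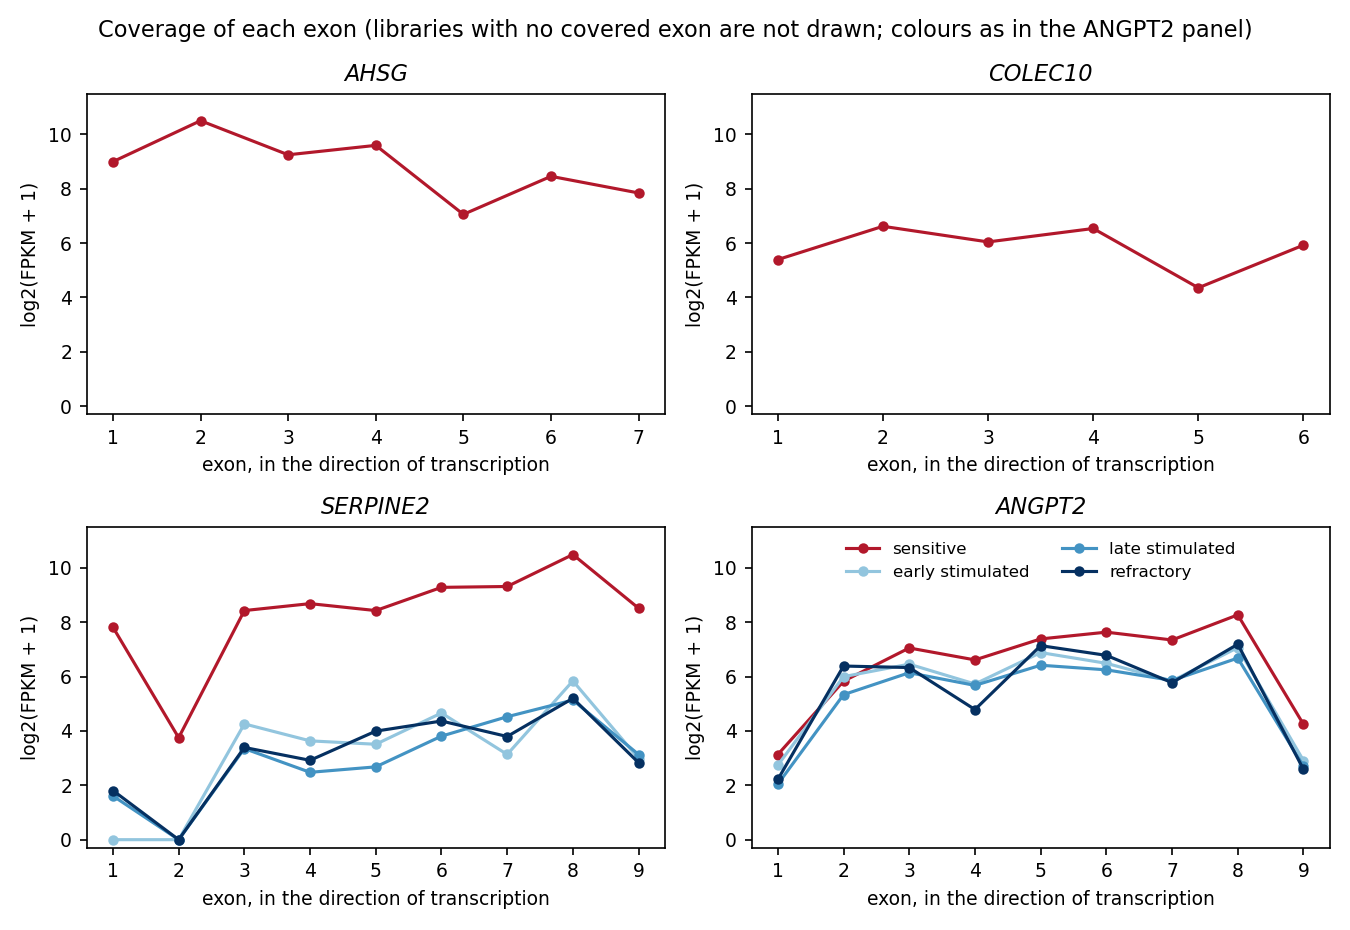
Coverage of each exon as log2(FPKM + 1), with exons numbered in the direction of transcription and 1 line per library. The sensitive line of SERPINE2 lies above the others at all 9 exons, with exon 2 at 12.5 FPKM in sensitive and 0 in the rest, and the lines of ANGPT2 run close together and cross at exon 2.

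Few of the genes that SERPINE2 acts with had a value. Of 25 serine protease inhibitors and genes of the thrombin and plasminogen activator system, 3 did, SERPINE2 itself, F2RL1 and SPINK4. F2RL1, a receptor activated by trypsin-like proteases, was at 11.01 FPKM in sensitive, 0.930 FPKM in early stimulated, 0.866 FPKM in late stimulated and 0.869 FPKM in refractory. Its differences from sensitive were -2.64, -2.69 and -2.68 on the log2(FPKM + 1) scale in the order of the states. All its levels were under the floor of the sensitive library, below which only reference-matched transcripts are listed. Its sensitive level also lies under the early stimulated floor of 12.5 FPKM, and each later level under the floor of its own library. These differences are therefore not firm. SPINK4, of a family of serine protease inhibitors, was at 1.92 FPKM in sensitive and listed at 0 elsewhere, under every floor. The target proteases thrombin and the plasminogen activators had no value.

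The profile of SERPINE2 had no near match among the named genes. The nearest was OAT, the ornithine aminotransferase of mitochondria, at a distance of 2.02, with 95.2 FPKM in sensitive, 8.17 FPKM in early stimulated, 8.66 FPKM in late stimulated and 10.02 FPKM in refractory. MSN, the membrane-cytoskeleton linker moesin, followed at 2.04 with 127 FPKM in sensitive, 11.1 FPKM in early stimulated, 16.1 FPKM in late stimulated and 14.6 FPKM in refractory. MYLIP, a ubiquitin ligase, was at a distance of 2.38. KCNE4, a potassium channel subunit and the nearest gene with a value downstream of SERPINE2, at 213 kb, was at 9.45 FPKM in sensitive, 0 in early stimulated, 0.242 FPKM in late stimulated and 0.326 FPKM in refractory. Its sensitive value lies under the floor of early stimulated.

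ANGPT2, the angiopoietin gene, differed least. It was at 44.2 FPKM in sensitive, 21.4 FPKM in early stimulated, 17.4 FPKM in late stimulated and 20.6 FPKM in refractory. The later libraries lay within 1.23-fold of each other, and sensitive was 2.06-fold above early stimulated, 2.53-fold above late stimulated and 2.14-fold above refractory. The differences from sensitive were -1.01 for early stimulated, -1.29 for late stimulated and -1.06 for refractory on the log2(FPKM + 1) scale, just past 1, the size counted as lower here. All 4 values lie above their libraries' floors.

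The gene (ENSFALG00000001888) has 9 exons and 5123 exonic bases on the plus strand of scaffold JH603196.1, from 3908084 to 3952249. It was the only one of the 4 genes listed under its own name in every library, each time by 1 transcript with all 8 annotated introns. Mean coverage was 5.32 for sensitive, 4.30 for early stimulated, 7.47 for late stimulated and 6.57 for refractory, so the aligned sequence over ANGPT2 was 27.3 kb in sensitive, 22.0 kb in early stimulated, 38.3 kb in late stimulated and 33.7 kb in refractory. Sensitive had the highest level and not the most sequence, since its library is the shallowest.

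Along ANGPT2 the difference was not even. The last exon holds 74.2% of the exonic bases and was thinly covered, at 17.9 FPKM in sensitive, 6.51 FPKM in early stimulated, 5.50 FPKM in late stimulated and 5.01 FPKM in refractory. The internal exons were far higher, up to 307 FPKM in sensitive, 133 FPKM in early stimulated, 101 FPKM in late stimulated and 145 FPKM in refractory at exon 8. Exon 2 was not highest in sensitive, with 55.9 FPKM there, 62.8 FPKM in early stimulated, 39.3 FPKM in late stimulated and 82.7 FPKM in refractory. Of the 9 exons, those below sensitive numbered 8 in early stimulated, 9 in late stimulated, 8 in refractory. In the same order, 4, 5 and 4 of them were lower by at least 1 in log2(FPKM + 1). Exons of a transcript share their reads and are not replicates.

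Without the last exon ANGPT2 was at 119 FPKM in sensitive, 64.1 FPKM in early stimulated, 51.7 FPKM in late stimulated and 65.5 FPKM in refractory. The differences were then -0.89 for early stimulated, -1.19 for late stimulated and -0.86 for refractory, so that 2 of the 3 no longer reached 1. Median-of-ratios scaling of the libraries did the same, with -0.87 for early stimulated, -1.03 for late stimulated and -0.98 for refractory. The ANGPT2 difference thus lay on either side of the threshold, depending on the setting.

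Angiopoietin partners could not be placed beside it. Of 33 angiopoietin and vascular growth factor genes, ANGPT2 alone had a value, and the receptor TEK and the opposing ligand ANGPT1 had none. None of 16 endothelial markers had a value either, so the part of vessel content in the ANGPT2 level was not tested. Of 12 smooth muscle and pericyte markers KCNMB1 alone had a value, and of 18 fibroblast and matrix markers TCF21 alone, at 9.65 FPKM in sensitive and listed at 0 elsewhere. The profiles most like ANGPT2 were those of ARRDC4, an arrestin-domain adaptor, with 41.4 FPKM in sensitive and a distance of 0.32, LSM8, a U6 RNA-binding protein, with 41.3 FPKM and 0.39, and KCMF1, a ubiquitin ligase, with 44.0 FPKM and 0.40. Its nearest neighbour in the genome, the acyltransferase gene AGPAT5 at 64.9 kb, was at 23.5 FPKM in sensitive, 27.0 FPKM in early stimulated, 44.5 FPKM in late stimulated and 29.8 FPKM in refractory.

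Set side by side, the order of the 4 genes by exon coverage turned between libraries. In sensitive it was AHSG, SERPINE2, COLEC10 and ANGPT2, with AHSG 1.39-fold above SERPINE2 and COLEC10 1.23-fold above ANGPT2 per exonic base. Both gaps are smaller than the spread between the exons of any of these genes in sensitive. Both orders also depended on the measure. By listed transcripts in sensitive, AHSG was at 526 FPKM and the unmatched SERPINE2 transcript at 628 FPKM, so AHSG was not the higher. Without each gene's last exon, AHSG stayed above SERPINE2 in sensitive, at 618 against 400 FPKM. On that measure ANGPT2 was above COLEC10, at 119 against 51.0 FPKM. In the other libraries ANGPT2 was the highest, standing above SERPINE2 by 2.41-fold in early stimulated, by 2.22-fold in late stimulated and by 2.73-fold in refractory. These folds average SERPINE2 over all its annotated bases. By the FPKM of the listed transcripts SERPINE2 was at 22.4 FPKM in early stimulated, 15.8 FPKM in late stimulated and 15.5 FPKM in refractory. ANGPT2 was then at 21.4, 17.4 and 20.6 FPKM in the same order, so it was not the higher in early stimulated. Summed by exon coverage, the 4 genes came to 1004 FPKM in sensitive, 30.3 FPKM in early stimulated, 25.3 FPKM in late stimulated and 28.2 FPKM in refractory. ANGPT2 held most of that sum in the last 3.

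**Figure D4:**
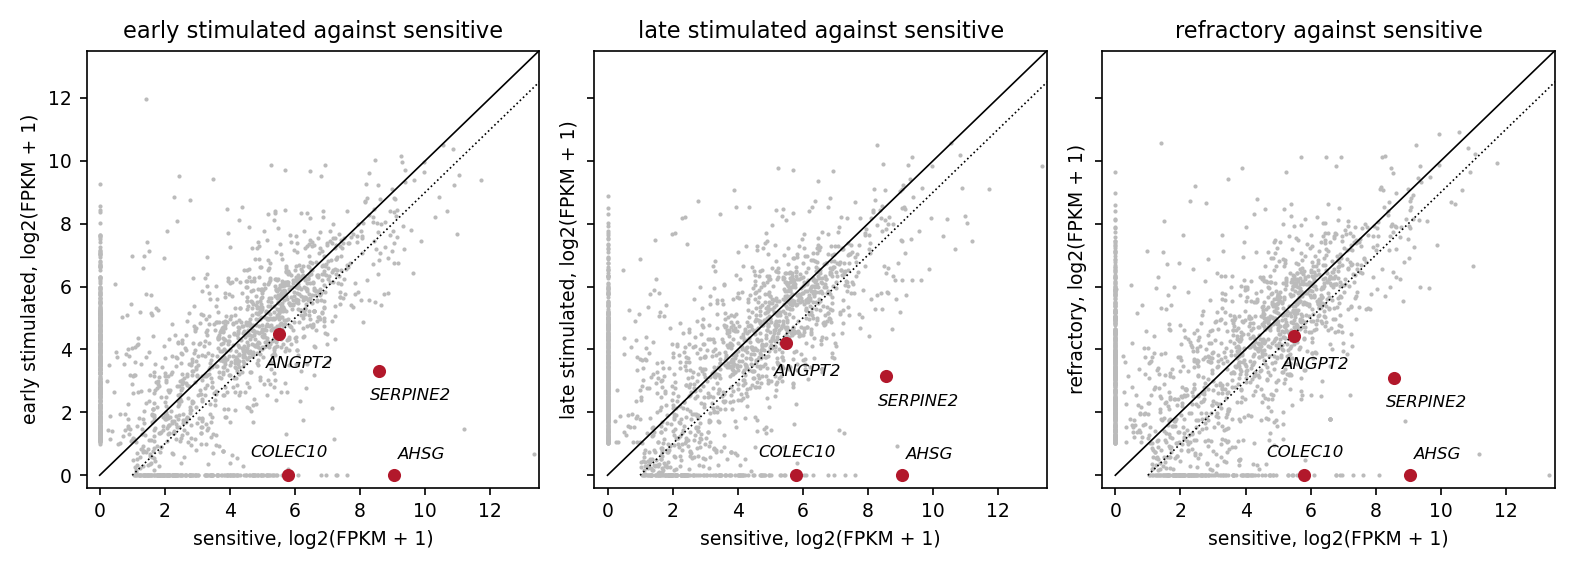
Each point is a gene at 1 FPKM or more in either library, with log2(FPKM + 1) of the later library against that of sensitive, the solid line at equality, the dotted line at a difference of -1, and the 4 genes in red. AHSG and COLEC10 lie on the bottom edge at 0, SERPINE2 well below the dotted line and ANGPT2 close to it, at -1.01, -1.29 and -1.06.

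Against all genes, the 4 were not alone in being lower. All 4 were lower by at least 1 in each comparison, which their choice fixed. Of all genes tested, 25.2% were lower by at least 1 in early stimulated (459 of 1822), 28.8% in late stimulated (519 of 1804) and 25.2% in refractory (465 of 1843). The median difference was 0.09, -0.02 and 0.22 over all genes, and -5.52, -5.60 and -5.63 over the 4. The median of the 4 lies between SERPINE2 and COLEC10, and the size of the COLEC10 value was set by the pseudocount. It describes genes chosen on these values and carries no test. Of the 1381 genes at 1 FPKM or more in sensitive, 339 (24.5%) were lower in all 3 comparisons, and so were 135 (19.9%) of the 680 genes at or above the sensitive floor that were covered in all 4 libraries. The 3 comparisons share the sensitive library, so they do not count as separate evidence.

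The place of each gene in the whole distribution differed. For AHSG, at most 0.220% of genes had a difference as low in any comparison, for COLEC10 at most 0.814% and for SERPINE2 at most 1.32%. For ANGPT2 the share was 24.9% for early stimulated, 23.1% for late stimulated and 24.6% for refractory. The genes were chosen on these same values, so the shares are a description and carry no test. For AHSG and COLEC10, listed at 0 in the later libraries, the size of the difference was also set by the pseudocount. Over all its annotated exons, SERPINE2 in sensitive stood 42.6-fold above early stimulated, 48.2-fold above late stimulated and 49.97-fold above refractory, larger folds than over the bases covered in all 4 libraries.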

How the data were processed

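Per the labels' protocols, total RNA came from tissue ground in liquid nitrogen and extracted with Tri reagent. The submitters' processing notes name Trimmomatic; which aligner was used is not given in the sources used. Per the file headers, the authors assembled each library separately with StringTie 1.3.3b, using as guide the collared flycatcher annotation of Ensembl 89 (FicAlb_1.4), another songbird. The deposited values are FPKM, TPM and coverage per transcript, and coverage per exon. The header of the sensitive library abbreviates it otherwise than its title does. Its state therefore rests on the label, which was taken as given, and every comparison here uses that library.

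A gene's exons were the union over its reference-matched transcripts in any file, by reference ID. Coverage by listed transcripts, own strand or unstranded, was averaged over these exons and scaled by aligned bases (coverage over FPKM). Divergence from the flycatcher genome can lower coverage, and paralogs can share it. Differences are later minus sensitive in log2(FPKM + 1), which understates low genes, and were counted from 1 where either library had at least 1 FPKM. No test was possible. Of the photoreceptor list, 1 gene is not reported here and is left out of its sums. Members, lists and rules were chosen with earlier results of these data known. Genes named were the members, list genes, the 3 nearest profiles per member and neighbours in rank or position; SNAI2, HOXA7, PAMR1 and CCDC80 were chosen after their values were seen. Alternatives were 10 set at the start and 2 chosen after seeing the data. The exon-coverage code was checked by multiplying coverages in the late stimulated library by known folds and recomputing the levels (Python 3.11.15, numpy 2.4.6, matplotlib 3.10.9). That check did not cover zeros, floors or the scaling of libraries.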

Additional observations from a re-analysis of the deposited data

Results flagged for a closer look

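Beside these genes, 2 transcripts lay outside the exons measured and were listed above the floor of the sensitive library. The first, of 1 exon and no strand, began 210 bases downstream of AHSG (FicAlb_1.4 scaffold JH603178.1, 11031503 to 11031709) and was at 30.4 FPKM in sensitive, with nothing listed within 20 kb of AHSG in the other libraries. The second, on the strand of SERPINE2 and 13360 bases downstream of it (1934405 to 1939877 of the same scaffold), was at 78.0 FPKM in sensitive. Overlapping transcripts stood there at 44.6 FPKM in early stimulated, 39.9 FPKM in late stimulated and 44.9 FPKM in refractory, so that this locus differed less between libraries than SERPINE2 did. Neither matches a reference gene.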

How the results depend on the processing

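AHSG and COLEC10 were lower by at least 1 in all 33 values each that came from 3 comparisons and 11 alternatives, and SERPINE2 in all 36. ANGPT2 was so in 29 of 36, and no value of the 4 genes turned its sign. The genes were chosen for being high in sensitive, so these tallies follow partly from that choice. Several alternatives, such as the filters on low values and own-strand counting, repeat the main value of ANGPT2 unchanged. The tallies therefore do not measure how firm a difference is. ANGPT2 missed 1 in early stimulated in TPM units (-0.97), and in both early stimulated and refractory with a pseudocount of 5 (-0.90 and -0.94), with median-of-ratios scaling and without its last exon, which leaves 3 of 4 genes lower. Of all genes, 24.5% were lower in early stimulated in TPM units. For early stimulated and refractory, the shares were 16.6% and 16.8% with a pseudocount of 5. They were 23.3% and 24.5% with median-of-ratios scaling, and 24.2% and 24.3% without the last exon. The count of all genes lower moved by over 1.5 times with a pseudocount of 5, at 302 (early stimulated), 323 (late stimulated) and 309 (refractory), where low genes count less by construction, and with uncovered genes at the listing floor, at 802 in late stimulated and 736 in refractory, where genes at 0 in sensitive are set to 20.8 FPKM by construction. Median-of-ratios scaling moved the median of all genes to 0.23, 0.25 and 0.29 in the order of the states. Counting own-strand transcripts alone gave the same counts. No paired analysis was possible because each state has 1 library. Depth limits the sensitive library most, and no count-based interval can be given.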
